A study of Homo sapiens with 12 samples.

Results

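The genotype-by-OSKM interaction was measured as the change from day 0 to day 6 of reprogramming in cells with a guide against MRG15, minus the same change in cells with a non-targeting guide. It was computed for every gene whose mean over the 12 libraries lay at least 1 above the lowest value of the table, which held for 14858 of 60660 gene identifiers. A positive value means that the gene went up more, or went down less, in the cells with the MRG15 guide (called KO here), and a negative value the reverse. The cells were dH1f, fibroblasts derived from the H1 human embryonic stem cell line. NT cells carried the non-targeting guide with the labelled genotype wild type, KO cells carried the lentiCRISPRv2 guide against MRG15, and both were collected before OSKM (day 0) and on the sixth day after it (day 6), with 3 libraries in each of the 4 groups. OSKM was thus given to both NT and KO cells.

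MRG15, encoded by MORF4L1, is a chromodomain protein that binds methylated H3K36. It is a subunit of the NuA4 (TIP60) acetyltransferase and SIN3 deacetylase complexes and has also been tied to splice site choice through PTB. The letters OSKM name OCT4 (encoded by POU5F1), SOX2, KLF4 and MYC, whose forced expression makes fibroblasts lose mesenchymal genes, gain epithelial ones and, in a minority of cells, reach pluripotency. Interferon-stimulated genes, described first among the gene groups below, are switched on by STAT and IRF factors that bind the interferon-stimulated response element of their promoters.

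Values are the deposited variance-stabilised values (VST, log2 scale), and the test was limma with Benjamini-Hochberg adjustment over all 14858 genes, two-sided, called at an adjusted p under 0.05. All KO libraries carry the same guide code and there is no rescue, so MRG15 loss and other effects of that guide or cell population cannot be told apart. There was no day 6 culture without OSKM, so OSKM and 6 days of culture cannot be told apart. On day 6 the RNA of all 4 OSKM factors was called higher in KO cells, with a median difference of 0.41. A different response to OSKM and a different level of OSKM RNA in KO cells therefore cannot be told apart. The labels do not say whether the 3 libraries of a group are separate cultures, so a p-value speaks to the spread among these libraries, which may be technical. In bulk RNA, fewer cells of a type and less RNA per cell cannot be told apart. Estimated depth ran from 17900000 to 22200000 reads per library, with the lowest group mean, 18900000 reads, in KO cells on day 6. Of the markers of the labelled cell type, all 35 listed fibroblast and matrix genes passed the filter, with a mean VST of 14.38 to 14.41 in the NT libraries of day 0. Of the markers of other cells, 5 of 12 leukocyte, 9 of 12 endothelial and 9 of 20 neural genes passed it.

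The promoter windows of 4 interferon-stimulated genes are shown because these genes lie among the higher interactions of their list and their windows hold the motif that interferon factors bind. Each is the stretch of 250 bases just upstream of the RefSeq start (GRCh38.p14), written 5′ to 3′ on the gene's own strand, and capitals mark every match to GAAANNGAAA, the core of the interferon-stimulated response element, read on either strand. The windows are chr14:94110486-94110735 (plus strand) for IFI27, chr1:27672193-27672442 (minus strand) for IFI6, chr1:1013247-1013496 (plus strand) for ISG15 and chr11:313790-314039 (plus strand) for IFITM1.
IFI27: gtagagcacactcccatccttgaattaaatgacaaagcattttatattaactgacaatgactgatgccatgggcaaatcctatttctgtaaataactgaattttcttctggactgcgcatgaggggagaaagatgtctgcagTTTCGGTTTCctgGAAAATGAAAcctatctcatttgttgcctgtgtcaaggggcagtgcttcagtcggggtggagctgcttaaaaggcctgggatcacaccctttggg
IFI6: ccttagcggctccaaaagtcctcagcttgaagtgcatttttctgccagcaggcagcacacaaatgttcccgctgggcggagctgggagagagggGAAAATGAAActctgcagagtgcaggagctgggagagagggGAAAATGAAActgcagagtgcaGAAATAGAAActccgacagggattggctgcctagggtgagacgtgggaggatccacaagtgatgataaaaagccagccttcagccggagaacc
ISG15: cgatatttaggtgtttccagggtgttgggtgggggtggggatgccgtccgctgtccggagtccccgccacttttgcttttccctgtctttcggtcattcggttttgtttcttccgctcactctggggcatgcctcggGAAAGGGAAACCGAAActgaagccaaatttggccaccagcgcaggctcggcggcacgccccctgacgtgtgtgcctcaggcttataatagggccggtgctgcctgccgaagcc
IFITM1: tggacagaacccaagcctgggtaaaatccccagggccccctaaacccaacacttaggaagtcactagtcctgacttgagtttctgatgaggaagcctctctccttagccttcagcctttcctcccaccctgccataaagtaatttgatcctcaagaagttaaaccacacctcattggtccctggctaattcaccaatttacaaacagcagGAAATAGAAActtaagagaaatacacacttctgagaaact

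The window of IFI27 held 2 matches, that of IFI6 3, that of ISG15 2 that overlap each other and that of IFITM1 1. The windows of OAS1 and MX1 held none at the first start listed. That of OAS1 held gaaacgaaa, in which the 2 GAAA stand closer than in the motif as written, so it was not counted. Among all tested genes with a window, 265 of 11269 (2.35%) held a match. Among genes with a positive called interaction it was 45 of 1087 (4.14%), and among those with a negative one 25 of 1278 (1.96%). Of the 40 listed interferon-stimulated genes 32 had a window and 19 of these (59.4%) a match. It was 13 of 18 (72.2%) for those called higher and 6 of 14 (42.9%) for those not called. These 13 are part of the 45 above, so the 4.14% is not a share beyond the listed genes. A match describes letters in the window and no bound site.

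The OSKM response differed between KO and NT cells at 3017 of 14858 genes (20.3%). The difference was positive at 1348 (9.07%) and negative at 1669 (11.2%). As background, OSKM itself was called at 9923 genes in NT cells (66.8%) and at 10969 in KO cells (73.8%), while KO and NT cells differed at 2698 genes on day 0 (18.2%) and at 5487 on day 6 (36.9%). The median absolute interaction was 0.501 over the called genes and 0.194 over all tested genes, and the lowest called was 0.152. Of the called genes 276 had an absolute value of at least 1, of which 65 were positive and 211 negative. Without the filter on low values, with 43596 genes tested, 877 genes were positive and 1296 negative.

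Most called genes moved the same way in both genotypes and further in KO cells. A larger fall in KO cells was found for 1373 genes (45.5% of the called) and a larger rise for 1169 (38.7%), so that 2542 (84.3%) changed further in KO cells. A smaller rise was found for 249 (8.25%) and a smaller fall for 150 (4.97%). Another 74 (2.45%) were called in opposite directions, 28 up in KO and down in NT cells and 46 the reverse. Without the filter the larger rises were 759, the smaller falls 95 and the opposite directions 43. The remaining 2 of the 3017, ADAM17 and SSU72, had a called interaction with no called OSKM change in either genotype, and neither kept its call under every alternative. Among the larger rises 231 were called by OSKM in KO cells alone, and among the larger falls 238. The same counts in NT cells alone were 97 of the smaller rises and 93 of the smaller falls.

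**Figure D1:**
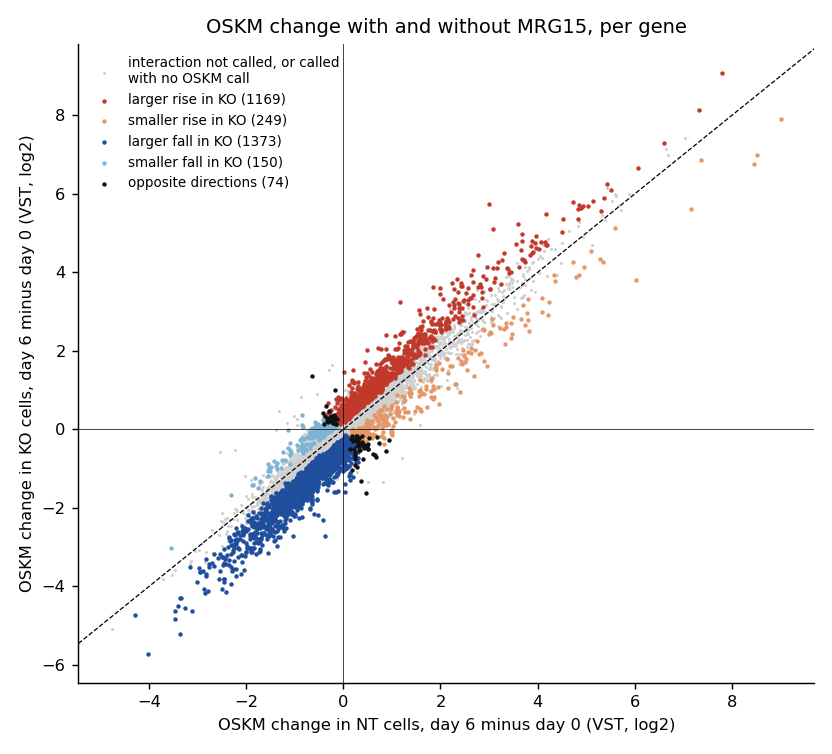
Each point is a gene, with its OSKM change (day 6 minus day 0, VST, log2) in NT cells on the x axis and in KO cells on the y axis. The dashed line marks equal change. Colours give the classes of the 3017 called genes: the 1169 larger rises and 1373 larger falls lie on the far sides of the line from 0, and the 74 genes called in opposite directions lie in the upper left and lower right.

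The difference between genotypes was called mostly on day 6. Of the 3017 genes, 1757 (58.2%) differed between KO and NT cells on day 6 alone, 897 with a positive and 860 with a negative interaction. Another 490 (16.2%) differed on day 0 alone, so that the difference present before OSKM was no longer called on day 6. Both days were called in the same direction for 352 (11.7%), of which 309 had a negative interaction. Both were called in opposite directions for 274 (9.08%), of which 102 were lower in KO cells on day 0 and higher on day 6 and 172 the reverse. Neither day was called for 144 (4.77%).

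**Figure D2:**
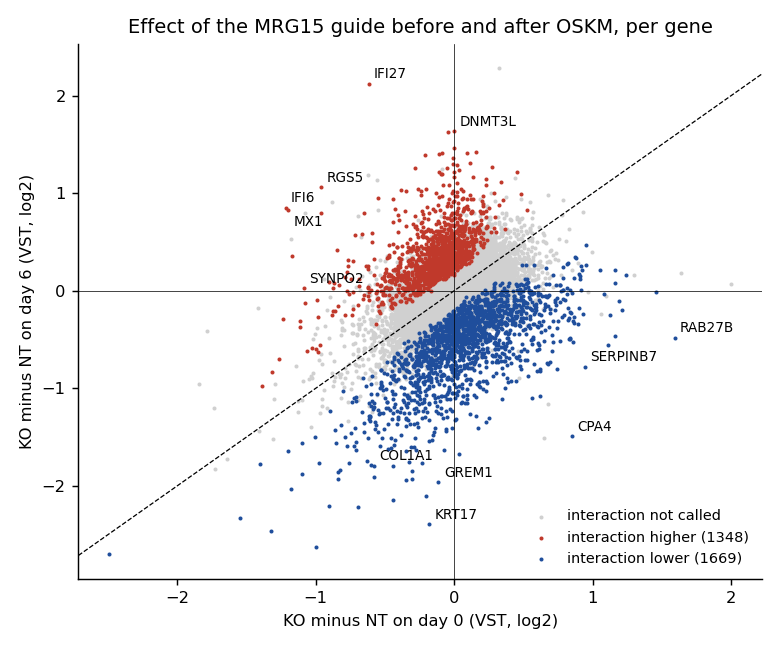
Each point is a gene, with KO minus NT on day 0 on the x axis and on day 6 on the y axis (VST, log2), and the dashed line marks the same difference on both days. The 1348 genes above the line in red have a positive called interaction, led by IFI27 at 2.74, and the 1669 in blue a negative one, led by CPA4 at -2.34.

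The guide's target was checked first. MORF4L1 had VST values of 12.92, 12.93 and 12.95 in NT and 10.40, 10.41 and 10.53 in KO libraries on day 0, and 12.72, 12.81 and 12.79 in NT and 10.12, 9.99 and 10.10 in KO libraries on day 6. All 6 KO libraries lay below all 6 NT libraries, by -2.49 on day 0 and -2.70 on day 6 in the group means. Its interaction was -0.21 (SE 0.071, adjusted p = 0.0471), a call that was lost without the filter on low values (adjusted p = 0.145), with a common median (0.0654), without limma's trend (0.103) and without any 1 of 9 of the 12 libraries (adjusted p 0.0525 to 0.116). MORF4L2, the paralog that encodes MRGX, had an interaction of -0.02 (SE 0.071, adjusted p = 0.902). Of 31 genes for MRG15, its paralog and its complex partners 1 was called higher and 3 lower, with a median of -0.01 beside 0.01 for all genes (12.9% called, beside 20.3% of all genes). Of 20 listed methylases, demethylases and readers of H3K36 methylation 4 were higher and none lower, and this 20% is near that share. The 4 became 2 without the second NT or the first or the third KO library of day 0, or without the first NT or second KO library of day 6. KDM4A, a lysine demethylase, had values of 10.56, 10.61 and 10.60 in NT and 10.22, 10.35 and 10.45 in KO libraries on day 0, and 11.24, 11.24 and 11.22 in NT and 11.49, 11.61 and 11.54 in KO libraries on day 6. KO libraries were the lower on day 0 and the higher on day 6, with no overlap on either day, and the interaction was 0.56 (SE 0.081, adjusted p = 0.000197). The median interaction of the 496 tested genes of chromosome 15, where MORF4L1 lies, was 0.0296, within the range of the other 22 chromosomes (-0.0404 to 0.0406). On each day, however, KO minus NT had its lowest chromosome median there, -0.1333 on day 0 and -0.0811 on day 6. The other chromosomes ran from -0.0189 to 0.0423 on day 0 and from -0.0551 to 0.0469 on day 6. A shift shared by both days cancels in the interaction, and its cause was not tested.

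The reprogramming factors themselves rose further in KO cells for 3 of 4 genes (75% called, beside 20.3% of all genes). The table gives 1 value per gene, in which transcripts of the vector and of the cell's own gene cannot be told apart. SOX2 had VST values of 5.13, 5.13 and 4.85 in NT and 4.85, 4.85 and 4.85 in KO libraries on day 0, and 12.41, 12.40 and 12.28 in NT and 12.93, 13.04 and 13.01 in KO libraries on day 6, where 4.85 is the table's lowest value and stands for no reads. All KO libraries exceeded all NT libraries on day 6, with 8092 ± 306 estimated normalised counts against 5216 ± 264 in NT cells (SD, n = 3), and the interaction was 0.82 (SE 0.12, adjusted p = 0.000229). SOX2 passed the filter through its day 6 level, since its day 0 values lay at or near the minimum. KLF4 and MYC had smaller interactions of 0.24 (SE 0.063, adjusted p = 0.0131) and 0.24 (SE 0.067, adjusted p = 0.0205), which were not called without the filter on low values (adjusted p = 0.0549 and 0.0586), and that of MYC also not without limma's trend (0.0693) or without the third KO library of day 6 (0.0562). POU5F1 was higher in KO cells on day 6 by 0.62 with no overlap, and its interaction of 0.40 (SE 0.19, adjusted p = 0.162) was not called. It was called after quantile normalisation (adjusted p = 0.0256) and without the third KO library of day 0 (adjusted p = 0.0139).

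Interferon-stimulated genes responded to OSKM more strongly in KO cells. Of 40 listed genes, all tested, 21 were called higher and none lower, beside 9.07% and 11.2% of all genes, and the median interaction was 0.49. Of the 21, 18 were larger rises, 2 were smaller falls and 1 was opposite. On day 0 the median difference between KO and NT cells was -0.49, with 27 genes called lower and 1 higher, and on day 6 it was -0.01, with 4 called lower and 10 higher. Over the list, the mean VST ran from 8.71 to 9.05 in NT and from 8.34 to 8.49 in KO libraries on day 0, and from 9.29 to 9.53 in NT and 9.49 to 9.59 in KO libraries on day 6. The groups were apart on day 0 and overlapped on day 6.

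IFI27, a mitochondrial protein induced by interferon, had the highest interaction of any called gene. Its VST values were 6.85, 6.73 and 6.74 in NT and 6.05, 6.04 and 6.39 in KO libraries on day 0, and 9.86, 9.94 and 9.51 in NT and 11.95, 11.92 and 11.81 in KO libraries on day 6. KO libraries lay below NT libraries on day 0 and above them on day 6, without overlap, and reached 3754 ± 190.4 estimated normalised counts against 825 ± 132 in NT cells (SD, n = 3). The OSKM change was 2.997 in NT and 5.74 in KO cells, and the interaction was 2.74 (SE 0.16, adjusted p = 4.93e-08). IFI6, which restrains apoptosis and flavivirus replication, had values of 10.18, 9.65 and 9.86 in NT and 8.73, 8.46 and 8.85 in KO libraries on day 0, and 11.15, 11.23 and 10.82 in NT and 11.88, 11.98 and 11.89 in KO libraries on day 6. The same crossing was seen without overlap, and its interaction was 2.07 (SE 0.19, adjusted p = 2.94e-06). MX1, a dynamin-like antiviral GTPase, had values of 9.27, 8.27 and 9.35 in NT and 7.87, 7.41 and 8.02 in KO libraries on day 0, and 11.94, 12.23 and 11.98 in NT and 12.85, 12.92 and 12.87 in KO libraries on day 6. Its second NT library of day 0 stood well below the other two, yet above all 3 KO libraries, and the interaction was 2.03 (SE 0.31, adjusted p = 0.000336). OAS1, which makes 2-5A to activate RNase L, had an interaction of 1.76 (SE 0.21, adjusted p = 3.8e-05), with KO libraries lower on day 0 and higher on day 6.

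ISG15, a ubiquitin-like modifier, was called in KO cells alone. It had values of 10.34, 9.71 and 10.16 in NT and 9.39, 9.35 and 9.52 in KO libraries on day 0, and 10.13, 10.32 and 9.83 in NT and 10.80, 11.02 and 10.85 in KO libraries on day 6. The NT libraries of the 2 days overlapped, with a change of 0.02 (adjusted p = 0.911), while the KO libraries rose by 1.47, and the interaction was 1.45 (SE 0.20, adjusted p = 0.000127). IFITM1, which blocks virus entry, had values of 9.58, 9.09 and 9.63 in NT and 9.23, 8.87 and 9.15 in KO libraries on day 0, and 10.19, 10.31 and 9.92 in NT and 11.10, 11.30 and 11.07 in KO libraries on day 6. KO and NT libraries overlapped on day 0 and were apart on day 6, and the interaction was 1.36 (SE 0.20, adjusted p = 0.000196). HERC5, the ligase for ISG15, had an interaction of 1.27 (SE 0.21, adjusted p = 0.000578), IFIT1, a sensor of viral RNA caps, one of 1.26 (SE 0.29, adjusted p = 0.00713), and BST2 (tetherin) one of 1.01 (SE 0.21, adjusted p = 0.00359). TRIM22, an antiviral ubiquitin ligase that was not on the list, had an interaction of 1.53 (SE 0.23, adjusted p = 0.000361), and its difference was called on day 0 alone (-1.17).

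The antigen presentation genes HLA-B, HLA-C and B2M, all larger rises, had interactions of 0.51, 0.37 and 0.49. RIGI, the sensor of viral RNA, was the member called in opposite directions. It had values of 9.35, 9.13 and 9.52 in NT and 8.62, 8.52 and 8.59 in KO libraries on day 0, and 8.86, 9.16 and 8.86 in NT and 8.89, 8.99 and 8.90 in KO libraries on day 6. KO libraries were below NT libraries on day 0 and overlapped them on day 6, with an OSKM change of -0.37 in NT and 0.35 in KO cells and an interaction of 0.72 (SE 0.15, adjusted p = 0.00289). Not called were 19 members, among them STAT2 at -0.07, IRF1 at -0.14, IFIT2 at 0.00 and OAS2 at -0.19. The calls of the 4 leading genes, of ISG15 and of IFITM1 held with each library left out in turn, and 19 to 24 members were then called higher. The list varied more between libraries of a group than any other list with at least 9 tested members, with a pooled SD of its mean of 0.116, and the second NT library of day 0 had the lowest mean of its group.

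**Figure D3:**
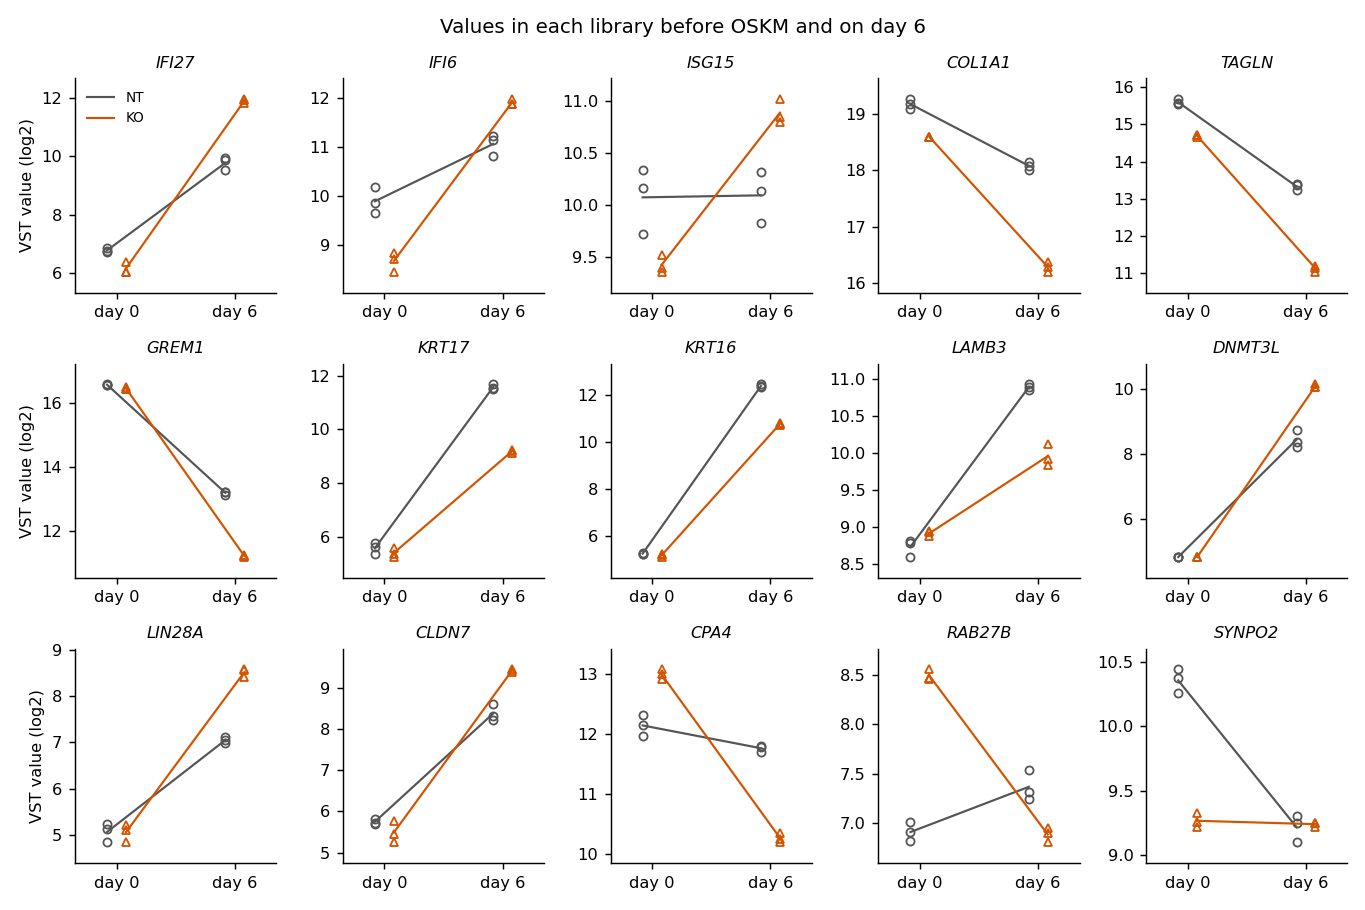
VST values (log2) of 15 genes in each library on day 0 and day 6, with circles for NT and triangles for KO libraries and lines joining the group means of the 3 libraries. In IFI27 and IFI6 the lines cross, KO being lower on day 0 and higher on day 6. In COL1A1, TAGLN and GREM1 the KO line falls further, in KRT17, KRT16 and LAMB3 it rises less, and in RAB27B the lines run in opposite directions.

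Fibroblast and matrix genes fell further in KO cells. Of 35 listed genes 30 were called lower and 1 higher, beside 11.2% and 9.07% of all genes, with a median interaction of -0.79. The median OSKM change was -1.03 in NT and -1.69 in KO cells, with 29 and 30 of the 35 called down. Of the called members 26 were larger falls. On day 0, 22 of the 35 were already lower in KO cells, and on day 6, 32 were. The mean VST over the list lay between 14.04 and 14.08 in the KO libraries of day 0, between 13.40 and 13.45 in the NT and between 12.30 and 12.34 in the KO libraries of day 6, so the 4 groups did not overlap.

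COL1A1, the more abundant type I collagen chain, had VST values of 19.18, 19.08 and 19.27 in NT and 18.60, 18.59 and 18.60 in KO libraries on day 0, and 18.16, 18.01 and 18.08 in NT and 16.20, 16.29 and 16.37 in KO libraries on day 6. KO libraries were the lower on both days without overlap, by -0.58 and then -1.80, and the interaction was -1.21 (SE 0.075, adjusted p = 6.5e-08). FN1, fibronectin, had values of 19.95, 19.96 and 20.05 in NT and 20.01, 19.91 and 20.06 in KO libraries on day 0, and 17.73, 17.71 and 17.66 in NT and 16.29, 16.42 and 16.42 in KO libraries on day 6. Here KO and NT libraries overlapped on day 0 and separated on day 6, to 85045 ± 4318 estimated normalised counts against 213029 ± 4799.6 in NT cells (SD, n = 3), with an interaction of -1.33 (SE 0.067, adjusted p = 8.98e-09). LUM, the proteoglycan lumican, had values of 12.16, 12.14 and 12.10 in NT and 12.23, 12.42 and 12.21 in KO libraries on day 0, and 11.92, 11.90 and 12.09 in NT and 10.76, 10.61 and 10.68 in KO libraries on day 6. In NT cells it moved little, by -0.16, and in KO cells by -1.60, which gave an interaction of -1.44 (SE 0.092, adjusted p = 8.73e-08). THBS1, thrombospondin 1, had the lowest interaction of the list at -1.63 (SE 0.072, adjusted p = 5.82e-09), and it was lower in KO cells on both days. Further larger falls were COL6A3 at -1.38, MMP2 at -1.37, LOXL2 at -1.36 and TNC at -1.32.

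DCN, decorin, was called in opposite directions. It had values of 9.999, 10.04 and 9.64 in NT and 10.52, 10.58 and 10.70 in KO libraries on day 0, and 10.15, 10.19 and 10.08 in NT and 9.70, 9.62 and 9.74 in KO libraries on day 6. KO libraries went from above to below the NT libraries, with an interaction of -1.16 (SE 0.13, adjusted p = 1.79e-05). ELN, elastin, was the member called higher, at 0.64 (SE 0.14, adjusted p = 0.00575): it had values of 9.71, 9.74 and 9.69 in NT and 8.93, 8.67 and 8.87 in KO libraries on day 0, and 7.38, 7.45 and 7.40 in NT and 7.37, 6.98 and 7.14 in KO libraries on day 6, so the lower level of KO cells on day 0 was followed by a smaller fall. Not called were PDGFRA, FBLN1, VCAN and S100A4.

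Outside the list, the lowest p of the whole table belonged to GREM1, a secreted antagonist of BMP signals. It had VST values of 16.57, 16.55 and 16.55 in NT and 16.42, 16.49 and 16.42 in KO libraries on day 0, and 13.23, 13.11 and 13.22 in NT and 11.25, 11.19 and 11.23 in KO libraries on day 6. KO libraries were slightly below NT libraries on day 0 and far below them on day 6, at 2332 ± 52.1 estimated normalised counts against 9277 ± 413 in NT cells (SD, n = 3). The OSKM change was -3.37 in NT and -5.22 in KO cells, an interaction of -1.85 (SE 0.055, adjusted p = 7.9e-11). CPA4, a carboxypeptidase, had the lowest interaction of all, with values of 12.14, 11.96 and 12.31 in NT and 12.99, 12.90 and 13.07 in KO libraries on day 0, and 11.69, 11.80 and 11.78 in NT and 10.25, 10.36 and 10.20 in KO libraries on day 6. Its KO libraries lay above NT libraries on day 0 and below them on day 6, and the interaction was -2.34 (SE 0.11, adjusted p = 5.82e-09). The serpin SERPINB7 crossed the same way with -1.72 (SE 0.089, adjusted p = 1.25e-08), as did the mesodermal transcription factor OSR1 with -1.67 (SE 0.21, adjusted p = 5.13e-05) and the adhesion receptor ADGRG1 with -1.65 (SE 0.16, adjusted p = 5.55e-06).

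Targets of TGF-beta and contractile genes fell further as well. Of 26 listed genes 17 were lower and 1 higher, beside 11.2% and 9.07% of all genes, with a median of -0.67. TAGLN, an actin-binding protein of smooth muscle, had VST values of 15.57, 15.68 and 15.55 in NT and 14.70, 14.71 and 14.67 in KO libraries on day 0, and 13.37, 13.24 and 13.39 in NT and 11.03, 11.14 and 11.21 in KO libraries on day 6. KO libraries were below NT libraries on both days, by -0.91 and then -2.20, and the interaction was -1.30 (SE 0.075, adjusted p = 3.36e-08). ACTA2, smooth muscle actin, was lower in KO cells by -1.55 on day 0 already and had an interaction of -0.78 (SE 0.071, adjusted p = 3.4e-06). The feedback inhibitor SMAD7 had -1.11 and the latent TGF-beta binding protein LTBP2 -1.29. The ligand TGFB2 was the member called higher, at 0.44 (SE 0.083, adjusted p = 0.00176), as a smaller fall, and the ligand TGFB3 was called in opposite directions, at -0.77 (SE 0.13, adjusted p = 0.000831), while TGFB1 had -0.04 and was not called.

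Of 20 listed YAP and TEAD targets and partners 11 were lower and 1 higher, beside 11.2% and 9.07% of all genes, with a median of -0.37. CCN1 had values of 14.08, 14.02 and 13.996 in NT and 13.69, 13.79 and 13.73 in KO libraries on day 0, and 12.64, 12.51 and 12.53 in NT and 11.14, 11.13 and 11.32 in KO libraries on day 6. All KO libraries were below all NT libraries on each day, and the interaction was -1.07 (SE 0.076, adjusted p = 2.63e-07). CCN2, the other matricellular target most used as a readout, had a smaller one of -0.38 (SE 0.064, adjusted p = 0.000703). TEAD4, the DNA-binding partner with the positive call, had 0.53, whereas TEAD1 had -0.40.

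Mesenchymal transcription factors and cadherins showed 7 lower and none higher of 13 tested, or 53.8% called beside 20.3% of all genes, with a median of -0.36. SNAI2 (SLUG), a repressor of epithelial genes, had VST values of 11.52, 11.62 and 11.54 in NT and 11.45, 11.50 and 11.54 in KO libraries on day 0, and 10.67, 10.59 and 10.67 in NT and 9.20, 9.19 and 9.29 in KO libraries on day 6. KO and NT libraries overlapped on day 0 and did not on day 6, at 544 ± 23.6 estimated normalised counts against 1546 ± 53.5 in NT cells (SD, n = 3), and the interaction was -1.36 (SE 0.074, adjusted p = 1.89e-08). PRRX1 had -0.94 and VIM, vimentin, -0.86. TCF4 had -0.49 (SE 0.15, adjusted p = 0.0284), a call lost without limma's trend (adjusted p = 0.0572) and without any 1 of 5 libraries (0.0557 to 0.0712). TWIST2 had -0.60 (SE 0.20, adjusted p = 0.0457), a call lost without any 1 of 11 libraries (adjusted p 0.0511 to 0.098, interaction -0.76 to -0.41), without the filter (0.0883), without the trend (0.0536), with a common median (0.0503), after quantile normalisation (0.0631) and on log2 of the estimated counts plus 1 (0.0547). The cadherins CDH11 and CDH13 were lower, at -0.36 and -0.98. Not called were SNAI1 with 0.05, TWIST1 with 0.10, ZEB1 with -0.28, ZEB2 with -0.17 and FOXC2 with -0.21. CDH2 (N-cadherin) had 0.03.

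Epithelial genes moved in both directions. Of 24 tested of 31 junction and simple epithelial genes 8 were higher and 3 lower, with a median of 0.39, while of 14 tested of 19 keratinocyte genes none was higher and 9 were lower, with a median of -0.77. The shares called were 45.8% and 64.3%, beside 20.3% of all genes. Most of both lists were near the table's minimum on day 0, so a gene passed the filter largely through its day 6 level, and these counts do not cover members that stayed low. CLDN7, a tight junction claudin, had VST values of 5.82, 5.73 and 5.69 in NT and 5.45, 5.76 and 5.26 in KO libraries on day 0, and 8.30, 8.60 and 8.21 in NT and 9.38, 9.43 and 9.44 in KO libraries on day 6. KO libraries overlapped NT libraries on day 0 and exceeded them on day 6, and the interaction was 1.30 (SE 0.19, adjusted p = 0.000194). OCLN, occludin, had 1.28 (SE 0.20, adjusted p = 0.000335), and EPCAM, the epithelial adhesion molecule, had 1.05 (SE 0.20, adjusted p = 0.00198). The simple epithelial keratins differed among themselves: KRT8 and KRT18 had 0.38 and 0.57, and KRT19 and KRT7 had -0.91 and -1.11, all called. CDH1 (E-cadherin) rose in both genotypes, with values of 5.78, 5.47 and 5.89 in NT and 6.04, 5.26 and 5.35 in KO libraries on day 0, and 8.999, 8.98 and 9.11 in NT and 9.10, 9.03 and 9.15 in KO libraries on day 6, which overlapped on both days, and its interaction of 0.22 (SE 0.24, adjusted p = 0.555) was not called.

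The 3 lower members were JUP at -0.68, CLDN4 at -0.83 and KRT19 at -0.91. KRT19 had values of 8.88, 8.71 and 8.60 in NT and 9.63, 9.60 and 9.71 in KO libraries on day 0, and 8.34, 8.45 and 8.30 in NT and 8.31, 8.33 and 8.47 in KO libraries on day 6. Its KO libraries exceeded the NT libraries on day 0 and overlapped them on day 6, with an interaction of -0.91 (SE 0.12, adjusted p = 0.000102).

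Of the 9 lower keratinocyte genes 7 rose with OSKM in NT cells and rose less in KO cells, and the desmosomal DSC3 at -0.92 and the junction protein PERP at -0.62 were larger falls. Among those not called, KRT13 had 0.13, SFN -0.07, COL17A1 -0.32 and KRT4 -0.52. KRT17, a keratin of basal and wounded epidermis, had VST values of 5.76, 5.33 and 5.60 in NT and 5.33, 5.59 and 5.23 in KO libraries on day 0, and 11.69, 11.53 and 11.53 in NT and 9.13, 9.21 and 9.24 in KO libraries on day 6. The rise was 6.02 in NT and 3.81 in KO cells, to 528 ± 23.5 estimated normalised counts against 3013 ± 195 in NT cells (SD, n = 3), and the interaction was -2.21 (SE 0.17, adjusted p = 5.25e-07). KRT16, a keratin of the stressed epidermis, had values of 5.28, 5.21 and 5.21 in NT and 5.20, 5.09 and 5.19 in KO libraries on day 0, and 12.47, 12.39 and 12.35 in NT and 10.82, 10.76 and 10.74 in KO libraries on day 6. On day 6 all KO libraries lay below all NT libraries, and the interaction was -1.55 (SE 0.11, adjusted p = 1.95e-07). KRT6A, its usual partner, had -1.71 (SE 0.17, adjusted p = 7.37e-06), and the basal keratin KRT14 -1.54 (SE 0.17, adjusted p = 1.45e-05). On log2 of the estimated counts plus 1, which weighs their few reads on day 0 more, these last values became -1.85 (adjusted p = 0.0617) for KRT6A and -0.56 (adjusted p = 0.599) for KRT14, neither called, and only 5 of the 9 members stayed called lower. LAMB3, a laminin chain of epithelial basement membranes that was well detected on day 0, had values of 8.80, 8.60 and 8.82 in NT and 8.94, 8.95 and 8.88 in KO libraries on day 0, and 10.90, 10.93 and 10.85 in NT and 9.84, 10.12 and 9.92 in KO libraries on day 6. KO libraries were slightly above NT libraries on day 0 and below them on day 6, and the interaction was -1.11 (SE 0.11, adjusted p = 7.72e-06).

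**Figure D4:**
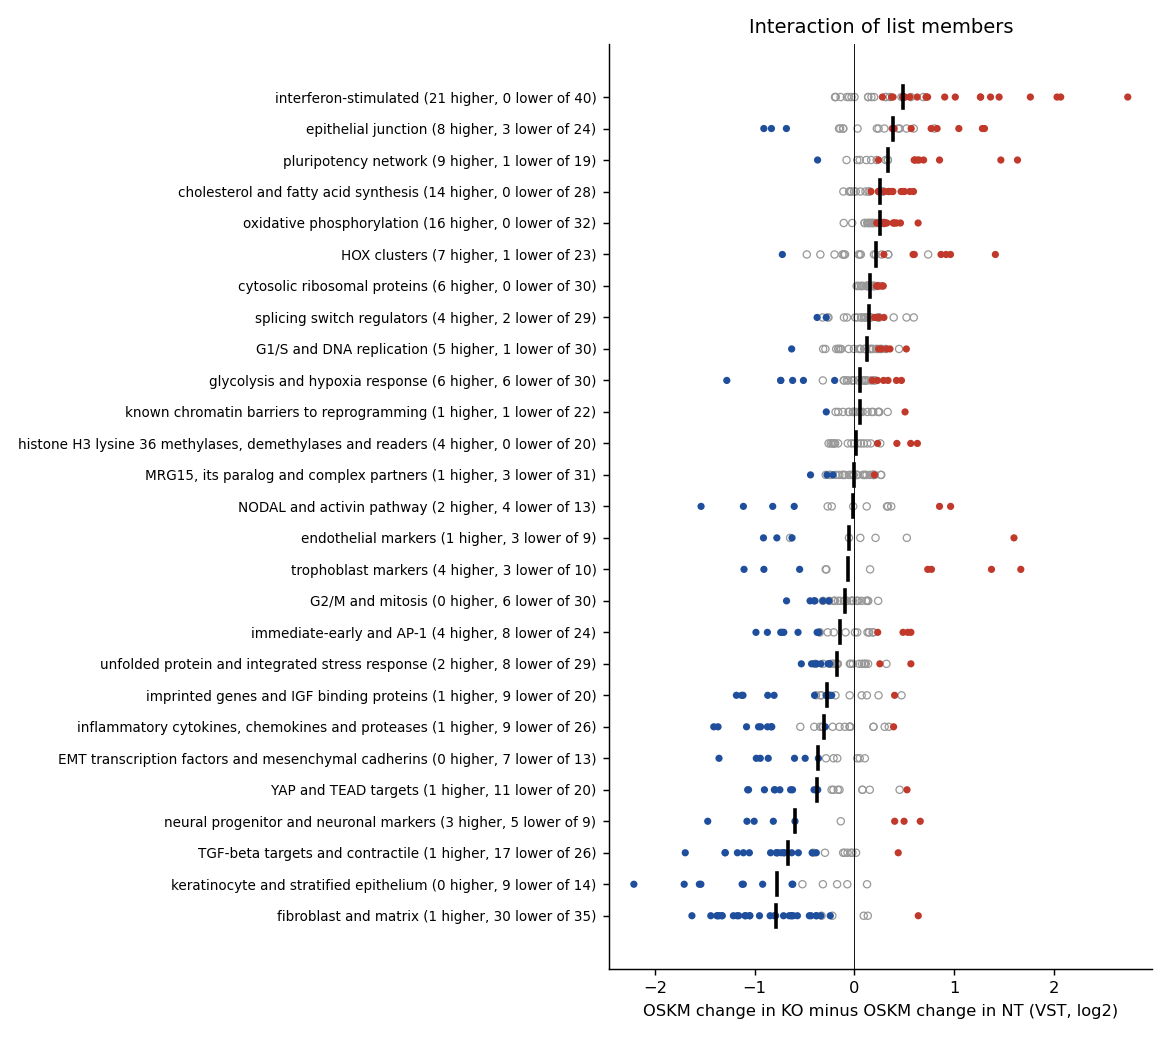
The interaction (VST, log2) of each tested member of the lists drawn, each with at least 9 tested members, in rows ordered by the list's median, which the black tick marks. Filled points are called genes, red for positive and blue for negative, and open grey points are not called. Interferon-stimulated genes head the rows with 21 higher and 0 lower of 40, and fibroblast and matrix genes end them with 1 higher and 30 lower of 35.

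Of 30 listed pluripotency genes 19 were tested, and 9 of these rose further in KO cells and 1 less (52.6% called, beside 20.3% of all genes), with a median of 0.33. The others did not pass the filter, and those that did were carried by their level on day 6, so the count cannot speak for the whole list. DNMT3L, a cofactor of DNA methylation in germ and pluripotent cells, had VST values of 4.85, 4.85 and 4.85 in NT and 4.85, 4.85 and 4.85 in KO libraries on day 0, and 8.35, 8.74 and 8.23 in NT and 10.06, 10.13 and 10.04 in KO libraries on day 6. No reads were seen on day 0 in any library, and on day 6 KO libraries were all above NT libraries, at 1022 ± 36.1 estimated normalised counts against 296 ± 66.6 in NT cells (SD, n = 3). The interaction, 1.64 (SE 0.17, adjusted p = 9.6e-06), therefore equals the difference on day 6. LIN28A, which blocks maturation of let-7, had values of 5.24, 4.85 and 5.13 in NT and 5.23, 4.85 and 5.12 in KO libraries on day 0, and 6.99, 7.05 and 7.11 in NT and 8.57, 8.42 and 8.56 in KO libraries on day 6. The groups overlapped on day 0 and were apart on day 6, with an interaction of 1.47 (SE 0.18, adjusted p = 5.41e-05). The de novo methylase DNMT3B had 0.63 (SE 0.14, adjusted p = 0.0043). Near the minimum the scale mattered: on log2 of the estimated counts plus 1 only 4 members stayed called higher, among which GDF3, a TGF-beta family ligand with 0.85 (SE 0.14, adjusted p = 0.000635), was not (adjusted p = 0.27). NANOG rose in both genotypes, with values of 5.01, 5.30 and 4.85 in NT and 5.67, 5.01 and 5.31 in KO libraries on day 0, and 8.38, 8.35 and 8.31 in NT and 8.96, 8.39 and 8.87 in KO libraries on day 6 and an interaction of 0.12 (SE 0.25, adjusted p = 0.787), and ZFP42 (REX1) had 0.05 and SALL4 0.31, none of which was called. The lower member was DPPA4 at -0.37 (adjusted p = 0.0307), a call that was lost without the filter (0.0763) and without any 1 of 9 libraries (0.0504 to 0.0758).

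In the NODAL and activin pathway, 2 of 13 tested genes were higher, GDF3 and the SMAD partner FOXH1, and 4 were lower, beside 9.07% and 11.2% of all genes, with a median of -0.01. On log2 of the estimated counts plus 1 none was higher, with an adjusted p of 0.284 for FOXH1 and 0.27 for GDF3, and 3 were lower. INHBA, the activin A subunit, had VST values of 13.50, 13.70 and 13.70 in NT and 13.41, 13.35 and 13.44 in KO libraries on day 0, and 11.47, 11.30 and 11.51 in NT and 9.66, 9.70 and 9.61 in KO libraries on day 6. KO libraries were the lower on both days, and the interaction was -1.54 (SE 0.089, adjusted p = 3.36e-08). LEFTY2, an inhibitor of NODAL that rises with pluripotency, had -0.82 (SE 0.23, adjusted p = 0.0223), and its call was lost on log2 of the estimated counts plus 1 (adjusted p = 0.803) and without the first NT or the second KO library of day 6 (0.0585 and 0.051). LEFTY1 had -0.01 and was not called.

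Inflammatory cytokines and proteases showed 1 higher and 9 lower of 26 tested, or 38.5% called beside 20.3% of all genes, with a median of -0.30. MMP3, stromelysin, had VST values of 5.95, 5.98 and 5.84 in NT and 7.05, 7.15 and 7.20 in KO libraries on day 0, and 5.86, 5.74 and 5.58 in NT and 5.73, 5.37 and 5.48 in KO libraries on day 6. Only the KO libraries of day 0 stood apart, above all others, and the interaction was -1.41 (SE 0.17, adjusted p = 4.93e-05). PTX3, a soluble pattern receptor, had -1.37 and the prostaglandin synthase PTGS2 -0.87. IL33 and CXCL8, at -0.96 and -0.94, rose by OSKM in NT cells and were not called in KO cells. NFKBIA, the inhibitor of NF-kappa-B, was higher at 0.39, and IL6 with -0.04 and CCL2 with 0.30 were not called.

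Of 24 tested AP-1 and immediate-early genes 4 were higher and 8 lower, beside 9.07% and 11.2% of all genes, with a median of -0.15. The higher ones were 1 without the filter on low values or without the first KO library of day 0, and 2 without the second NT library of day 0 or the first NT, the second KO or the third KO library of day 6. FOSL1, the AP-1 subunit FRA-1, had VST values of 10.39, 10.47 and 10.41 in NT and 10.83, 10.65 and 10.76 in KO libraries on day 0, and 8.53, 8.39 and 8.38 in NT and 7.64, 7.86 and 7.80 in KO libraries on day 6. Its KO libraries were above NT libraries on day 0 and below on day 6, with an interaction of -0.99 (SE 0.11, adjusted p = 1.86e-05). JUN crossed in the same way, at -0.74 (SE 0.070, adjusted p = 5.22e-06), and FOSL2 had -0.87. EGR1, a serum-response gene, had values of 10.06, 9.87 and 9.86 in NT and 9.65, 9.66 and 9.68 in KO libraries on day 0, and 11.40, 11.34 and 11.34 in NT and 11.46, 11.64 and 11.64 in KO libraries on day 6. It crossed the other way, with an interaction of 0.49 (SE 0.089, adjusted p = 0.0014).

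Metabolic genes shifted by less. Of 32 oxidative phosphorylation genes 16 were higher and none lower, beside 9.07% and 11.2% of all genes, with a median of 0.26, and all 16 were larger rises. COX5A, a subunit of cytochrome oxidase, had VST values of 10.27, 10.26 and 10.12 in NT and 9.88, 9.87 and 9.97 in KO libraries on day 0, and 10.94, 10.93 and 10.82 in NT and 11.22, 11.19 and 11.27 in KO libraries on day 6. KO libraries went from below to above NT libraries, and the interaction was 0.64 (SE 0.082, adjusted p = 7.11e-05). Leaving out 1 library gave 9 to 17 called members, with the lowest count without the third NT or the first KO library of day 6. Of 28 cholesterol and fatty acid synthesis genes 14 were higher and none lower, likewise 50% called beside 20.3%, with a median of 0.26. SQLE, squalene epoxidase of cholesterol synthesis, had values of 10.92, 10.89 and 10.90 in NT and 10.72, 10.89 and 10.72 in KO libraries on day 0, and 10.93, 10.93 and 10.93 in NT and 11.31, 11.25 and 11.35 in KO libraries on day 6. It did not change with OSKM beyond the test in NT cells (0.03, adjusted p = 0.684) and rose by 0.53 in KO cells, with an interaction of 0.50 (SE 0.075, adjusted p = 0.000277). Leaving out 1 library gave 7 to 12 called members, with the lowest count without the first NT or the third KO library of day 0.

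The list of glycolysis and hypoxia genes held 6 higher and 6 lower of 30, beside 9.07% and 11.2% of all genes, with a median of 0.06. Without the filter on low values 2 were higher and 4 lower, and without limma's trend 3 and 5. NDRG1, induced by hypoxia, had VST values of 11.86, 11.96 and 12.05 in NT and 12.74, 12.73 and 12.69 in KO libraries on day 0, and 10.80, 10.69 and 10.65 in NT and 10.11, 10.38 and 10.10 in KO libraries on day 6. KO libraries were above NT libraries on day 0 and below them on day 6, and the interaction was -1.28 (SE 0.10, adjusted p = 8.45e-07). VEGFA, the angiogenic factor, crossed likewise with -0.74 (SE 0.073, adjusted p = 7.35e-06), and ADM, adrenomedullin, had -0.62. The higher members were HK2 at 0.47, LDHB, PFKP, PGAM1, ALDOC and PFKM, of which ALDOC lost its call without any 1 of 9 libraries (adjusted p 0.059 to 0.107) and PFKM without any 1 of 8 (0.0576 to 0.109).

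Of the cell cycle genes 20% were called in each of the G1/S and G2/M lists, near the 20.3% of all genes. For G1/S and replication 5 of 30 were higher and 1 lower, with a median of 0.13, and for G2/M and mitosis none was higher and 6 lower of 30, with a median of -0.09. Those 6 were smaller rises. Between genotypes, 27 of the 30 G2/M genes were called higher in KO cells on day 0 and 23 on day 6, and none lower on either day. MCM6, a subunit of the replicative helicase, had VST values of 9.82, 9.98 and 9.97 in NT and 9.87, 9.84 and 9.90 in KO libraries on day 0, and 10.98, 11.08 and 11.05 in NT and 11.55, 11.48 and 11.48 in KO libraries on day 6. KO libraries exceeded NT libraries on day 6 and overlapped them on day 0, with an interaction of 0.52 (SE 0.079, adjusted p = 0.000307). MKI67, a mark of cycling cells, had values of 10.73, 10.91 and 10.89 in NT and 11.39, 11.21 and 11.49 in KO libraries on day 0, and 12.13, 12.05 and 12.11 in NT and 12.18, 12.15 and 12.19 in KO libraries on day 6. KO libraries were above NT libraries on day 0 by 0.52, while the day 6 difference of 0.08 was not called (adjusted p = 0.389), and the interaction was -0.44 (SE 0.094, adjusted p = 0.00384). The count of 6 fell to 3 without the third NT or the second KO library of day 6. CCND1, cyclin D1, was the lower member of the G1/S list, at -0.63 (SE 0.054, adjusted p = 2.01e-06).

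The growth factor IGF2 had the largest OSKM rise of all tested genes in NT cells and a smaller one in KO cells. Its VST values were 6.50, 6.51 and 6.59 in NT and 7.39, 7.52 and 7.15 in KO libraries on day 0, and 15.63, 15.45 and 15.56 in NT and 15.11, 15.34 and 15.30 in KO libraries on day 6. KO libraries stood above NT libraries on day 0 and below them on day 6, and the interaction was -1.12 (SE 0.12, adjusted p = 1.45e-05). Of the 20 tested imprinted genes and IGF binding proteins 9 were lower and 1 higher (50% called, beside 20.3% of all genes), with IGFBP4 at -1.18, IGFBP5 at -1.13 and IGFBP7 at -0.87. Every tested IGF binding protein was called, but of the imprinted genes only IGF2, MEST, NDN and SGCE were. Without the filter on low values 6 were lower, and without limma's trend also 6. Among 23 tested of 30 HOX genes 7 were higher and 1 lower, beside 9.07% and 11.2% of all genes, with a median of 0.21. HOXD1, a member of the anterior end of its cluster, had values of 5.40, 5.68 and 5.49 in NT and 4.85, 5.23 and 5.34 in KO libraries on day 0, and 7.99, 8.32 and 8.24 in NT and 9.19, 9.27 and 9.18 in KO libraries on day 6. KO libraries were higher on day 6, and their lower values on day 0 were near the table's minimum, a difference that was not called. HOXD1 thus passed the filter through its day 6 level, and the interaction was 1.41 (SE 0.19, adjusted p = 0.000121). HOXD3 had 0.96 and HOXD4 0.87, and the posterior HOXA13 was the lower member at -0.72 (SE 0.17, adjusted p = 0.008).

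Genes called in opposite directions show the interaction most plainly. RAB27B, a GTPase of vesicle secretion, had VST values of 6.81, 7.005 and 6.90 in NT and 8.46, 8.47 and 8.56 in KO libraries on day 0, and 7.32, 7.24 and 7.54 in NT and 6.90, 6.80 and 6.95 in KO libraries on day 6. It rose in NT cells by 0.46 and fell in KO cells by 1.61, with an interaction of -2.07 (SE 0.14, adjusted p = 2.35e-07). RGS5, a regulator of G protein signalling, had values of 9.22, 9.18 and 9.33 in NT and 8.23, 8.34 and 8.27 in KO libraries on day 0, and 8.66, 8.86 and 8.26 in NT and 9.52, 9.62 and 9.81 in KO libraries on day 6. It fell in NT cells by 0.65 and rose in KO cells by 1.37, with an interaction of 2.02 (SE 0.18, adjusted p = 2.12e-06). PCDH10, a protocadherin, had values of 11.04, 11.16 and 11.22 in NT and 10.51, 10.53 and 10.60 in KO libraries on day 0, and 11.004, 10.89 and 10.98 in NT and 11.45, 11.61 and 11.60 in KO libraries on day 6 and an interaction of 1.19 (SE 0.084, adjusted p = 2.56e-07). In each of these 3 genes the KO libraries changed sides between the days without overlap.

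TSPAN9, a tetraspanin, had values of 10.10, 10.13 and 10.18 in NT and 10.04, 10.02 and 10.10 in KO libraries on day 0, and 11.13, 10.99 and 11.12 in NT and 9.75, 9.82 and 9.74 in KO libraries on day 6. KO and NT libraries were close on day 0, and on day 6 the KO libraries were far below, with an interaction of -1.23 (SE 0.079, adjusted p = 1e-07). Among smaller falls, SYNPO2, an actin-binding protein, had values of 10.25, 10.37 and 10.44 in NT and 9.26, 9.22 and 9.33 in KO libraries on day 0, and 9.10, 9.25 and 9.30 in NT and 9.25, 9.25 and 9.22 in KO libraries on day 6. Its KO libraries were at the day 6 level before OSKM, and the KO change of -0.03 was not called (adjusted p = 0.747), for an interaction of 1.11 (SE 0.099, adjusted p = 2.73e-06). The kinase STK38L was of the same kind, at 0.95 (SE 0.10, adjusted p = 1.82e-05).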

How the data were processed

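The protocols in the labels name a Zymo kit for RNA and the TruSeq Stranded mRNA kit for libraries. STAR, Salmon, DESeq2 and GRCh38 appear in the submitters' processing notes, with no versions in the sources used here. The authors deposited VST values on a log2 scale for 60660 identifiers in 12 libraries. Raw counts were not analysed here.

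Normalised counts were estimated with the inverse of the parametric transformation, a form that was assumed. After scaling, 61.8 to 69.2% of the low values of a library lay within 0.1 of a whole number, so no count model was fitted, and depths and counts are estimates that carry counting error. The filter limit equals an estimated 14.4 normalised counts. Near the minimum, VST differences understate the log2 fold of the counts.

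All 4 groups entered 1 fit in limma 3.58.1 (R 4.3.3), with the trend option and the Benjamini-Hochberg adjustment over all tested genes. The same fit gave the OSKM change in each genotype and KO against NT on each day. Symbols were matched by gene identifier from a reference list of gene names, and coordinates came from GENCODE 29. Promoter windows came from RefSeq (GRCh38.p14), matched by symbol, at the first start listed for a gene. The fit was also run on simulated VST values with independent normal noise, and the outcome is not reported here. Such noise cannot speak to low counts near the minimum or to technical replicates.

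The members and the 31 gene lists were chosen with earlier results of these data known, so a list's count is a description. Named genes follow a rule: MORF4L1, MORF4L2 and the OSKM factors, the 12 highest and 12 lowest called interactions, the 4 lowest p in each class, and up to 4 called members of a list, or its 2 highest members where none was called. Some are not reported here, and other list members given were chosen with their values known. No library equalled another. Alternatives were other filters, scalings, pseudocounts of 1 and 10, variance settings, the replicate number as a block, no chromosome 15 genes and each library left out.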

Additional observations from a re-analysis of the deposited data

Results flagged for a closer look

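The response to OSKM differed between KO and NT cells by the interaction test at 3017 genes, of which 74 were called in opposite directions in the 2 genotypes. Among these, RAB27B had an interaction of -2.07, G0S2, an inhibitor of triglyceride lipase, one of -1.69 and TFPI2, a protease inhibitor, one of -1.38. TSPAN9 had -1.23, the proteoglycan DCN -1.16, the placental growth factor PGF -0.91 and the ligand TGFB3 -0.77. Each of these 7 rose with OSKM in NT cells and fell in KO cells. The RNA sensor RIGI had 0.72, the protocadherin PCDH10 1.19 and RGS5, a regulator of G protein signalling, 2.02, and these 3 fell in NT cells and rose in KO cells. All are differences of VST changes on the log2 scale, with 3 libraries in each group.

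TFPI2 had VST values of 10.60, 10.46 and 10.38 in NT and 11.29, 11.36 and 11.38 in KO libraries on day 0, and 11.15, 11.18 and 11.14 in NT and 10.70, 10.45 and 10.76 in KO libraries on day 6. Its KO libraries were above all NT libraries on day 0 and below them on day 6. G0S2 had 8.60, 8.64 and 8.69 in NT and 9.18, 9.41 and 9.20 in KO libraries on day 0, and 8.87, 9.17 and 9.01 in NT and 7.98, 7.98 and 7.85 in KO libraries on day 6, with the same change of sides.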

How the results depend on the processing

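Under other settings (quantile normalisation, a common median, log2 of estimated counts plus 1 or 10, robust variances, no trend, replicate block, no chromosome 15 genes with 14362 tested, a filter at 2 above the minimum with 12136 tested) 2694 to 3209 genes were called, within 1.5 times of 3017. Without the filter 2173 of 43596 genes were called (4.98%), with 877 higher, 759 larger rises, 95 smaller falls and 43 opposite directions. The cause of the fewer calls was not tested. With each library left out in turn, 2425 to 3051 genes were called, 997 to 1373 higher and 1428 to 1678 lower. Larger falls were then 1179 to 1378, larger rises 863 to 1183, smaller rises 196 to 255, smaller falls 100 to 155 and opposite directions 51 to 75. The replicate block called 2953 genes, 2817 of them among the 3017. Replicate numbers gave no ground for pairs, since residuals of libraries with the same number correlated at -0.053 to 0.063. The share of calls that were higher was 44.7% and reached 49.6% with a common median.

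Of 142 named genes with a call 107 kept it in the same direction under every alternative, as did 101 of 160 other called list members, and none reversed. List medians turned from one side of 0 to the other for trophoblast markers (0.0931 with the filter at 2, 0.0649 after quantile normalisation), leukocyte markers (-0.6294 with that filter, -0.1859 on log2 of estimated counts plus 1) and endoderm markers (-0.4869 with that filter). In each case both medians lay further from 0 than the pooled SD of the list's mean VST among libraries of a group. These lists had 10, 5 and 4 tested members, fewer under the stricter filter, and the cause was not tested. Medians close to 0 also changed sign, among them that of the NODAL pathway (-0.0122, to 0.0235 after quantile normalisation and up to 0.0976 with a library left out), of endothelial markers (-0.0547, to 0.0589 with the filter at 2 and up to 0.0593 with a library left out), of H3K36 factors (0.0158, to -0.0018 after quantile normalisation), of MRG15 and its partners (-0.0073, to 0.0102 with a common median) and of trophoblast markers without the second KO library of day 6 (0.0331). Depth limits genes near the minimum, where a few reads on day 0 set the OSKM change.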

Other observations

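Markers of other lineages moved in both directions. Of 10 tested trophoblast markers 4 were higher and 3 lower (70% called, beside 20.3% of all genes), and on log2 of the estimated counts plus 1 only 1 was higher. Members such as ALPG passed the filter through their day 6 level. ALPG, a placental alkaline phosphatase, had VST values of 5.13, 5.13 and 5.25 in NT and 5.13, 5.12 and 5.13 in KO libraries on day 0, and 7.98, 8.01 and 7.83 in NT and 9.46, 9.70 and 9.54 in KO libraries on day 6. All KO libraries exceeded all NT libraries on day 6, and the interaction was 1.67 (SE 0.14, adjusted p = 2e-06). The neighbouring and near-identical ALPP had 1.37, which was not called on log2 of the estimated counts plus 1 (adjusted p = 0.0611), and reads may be split between the pair. KRT7, a simple epithelial keratin, was lower at -1.11. Of 9 tested neural genes 3 were higher, MAP2, NES and SYT1, and 5 lower, among them the secreted VGF at -1.47 and the adhesion molecule NCAM1 at -1.01 (88.9% called, beside 20.3%). The call of SYT1 (0.40) was lost without the filter (adjusted p = 0.0688) and without any 1 of 7 libraries (0.0542 to 0.0782). Of 9 tested endothelial markers ESAM, a junction protein, was higher at 1.60, while KDR, TIE1 and VWF were lower and PECAM1 with -0.05 was not called (44.4% called). The call of VWF was lost without the second NT library of day 0 or of day 6 (adjusted p = 0.0504 and 0.0534), and that of TIE1 without any 1 of 7 libraries (0.052 to 0.0914). Of 5 tested leukocyte markers LCP1 and CD68 were lower (40% called, beside 20.3%). The call of CD68 was lost without limma's trend (adjusted p = 0.0546) and without any 1 of 9 libraries (0.0529 to 0.0826). PTPRC with 0.27, ITGAM with 0.60 and CORO1A with 0.26 were not called, and the median of the list was 0.26.

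Of 30 cytosolic ribosomal protein genes 6 were higher and none lower, a share of 20% near the 20.3% of all genes, and all 30 interactions were positive, between 0.02 and 0.29. Without limma's trend none was called, after quantile normalisation 12 were, and with a library left out 3 to 10 were. The unfolded protein and integrated stress response held 2 higher and 8 lower of 29 (34.5% called, beside 20.3%), and 4 to 8 lower with a library left out. The lower members included TRIB3 at -0.53 and CEBPB at -0.43. The higher members were ATF3 at 0.57 and CRELD2 at 0.26, whose calls were lost without any 1 of 6 and of 11 libraries. ATF4 with 0.105 and HSPA5 with -0.05 were not called. Splicing regulators held 4 higher and 2 lower of 29, a share of 20.7% near that of all genes, and none higher and 1 lower without the filter or without limma's trend. With a library left out 0 to 4 were higher and 1 to 4 lower. PTBP1, a splicing repressor, had 0.20 (adjusted p = 0.0331), a call lost without the filter on low values (0.0975), without limma's trend (0.106) and without any 1 of 8 libraries (0.0536 to 0.0799). RBFOX2 had -0.37. Known chromatin barriers to reprogramming held 1 higher and 1 lower of 22, or 9.09% called against 20.3% of all genes.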
